A study of Caenorhabditis elegans with 2 samples.

Results

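The mir-51 family comprises 6 Caenorhabditis elegans microRNA (miRNA) genes, mir-51 to mir-56, described here by the chromatin binding of T22C8.4 around them. They were selected on the peak values described below, since all 6 had a peak of T22C8.4 in the pooled list, and they are 6 of 261 annotated miRNA genes and of 46890 annotated nuclear genes. T22C8.4 is a protein that RefSeq describes by a C2H2-type domain, the domain of a large class of zinc finger proteins. Binding was measured by chromatin immunoprecipitation and sequencing (ChIP-seq) in whole mid-embryos of strain OP785, labelled 2 hour in age and obtained by bleaching eggs. The strain carries the transgene insertion wgIs785, with T22C8.4::TY1 EGFP 3xFLAG and unc-119(+), in an unc-119 (tm4063) background. There was 1 group of 2 biological replicates, precipitated with an antibody to GFP from chromatin sonicated to 200-800 bp, so no test between conditions was possible. The protein is expressed from a transgene, and whole embryos pool all cell types, so the cells in which a site was bound cannot be told apart.

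A miRNA is cut from a hairpin in its transcript and guides an Argonaute protein to messenger RNAs that pair with its seed, the stretch of bases near its 5′ end. Members of a family share the seed and can therefore act on the same messages. In C. elegans the mir-51 family is present in most tissues and is required, as a group, for embryos to develop. Embryos without it fail to keep the pharynx attached to the mouth, and the mir-35 family is the other group required in the embryo.

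The mature sequences are given because the family is defined by them. They come from the RefSeq annotation of WBcel235, which is the sequence of the ce11 build of the peak lists. Each is written 5′ to 3′ with seed bases 2 to 8 in capitals, and mir-51, mir-52 and mir-53 come from the 5′ arm of the hairpin while mir-54, mir-55 and mir-56 come from the 3′ arm.

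mir-51: uACCCGUAgcuccuauccauguu
mir-52: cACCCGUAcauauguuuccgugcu
mir-53: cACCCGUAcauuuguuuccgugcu
mir-54: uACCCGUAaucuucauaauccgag
mir-55: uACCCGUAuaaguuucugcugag
mir-56: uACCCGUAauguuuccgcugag

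All 6 members carried the seed ACCCGUA, and it was found in 6 of 458 mature sequences read from 260 miRNA genes, none of them outside the family. The mir-52 and mir-53 sequences were identical at 23 of 24 positions counted from the 5′ end (95.8%), although their genes lie in different clusters. Outside the seed, that pair matched at 16 of 17 positions. The other 14 pairs matched at 12.5% to 46.7% of positions outside the seed, lowest for mir-54 with mir-55 and highest for mir-54 with mir-56.

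The 6 genes formed 3 clusters when members within 2000 bp of each other were joined. The hairpin of mir-51 lies on the minus strand of chromosome IV at 11026013 to 11026112. That of mir-53 lies on the same strand at 11027593 to 11027691, 1480 bp upstream of mir-51. The gene mir-52 stands alone on the plus strand of chromosome IV at 14034008 to 14034107. On the minus strand of chromosome X, mir-54 spans 13144996 to 13145094, mir-55 13144827 to 13144924 and mir-56 13144691 to 13144787, with only 71 and 39 bp between neighbours. These 3 hairpins lie in an intron of the protein-coding gene F09A5.3, which runs on the opposite strand. Another annotated miRNA, mir-55b, lies on the plus strand over mir-55. Peak lists carry no strand, so peaks at mir-55 and mir-55b cannot be told apart, nor can peaks serving F09A5.3 and the 3 hairpins inside it.

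The deposited peak lists come from the irreproducible discovery rate (IDR), which keeps peaks whose ranks repeat between a pair of rankings. There were 2415 peaks in the pooled list, which uses both replicates, 2326 in the conservative list, which compares them, 1629 in the list of replicate 1 and 1319 in that of replicate 2. Each peak has a score, computed from the IDR and capped at 1000, of which values of 830 and above were kept, and a signal value without a unit. The signal is the authors' value for that peak and is not scaled between lists, so it is read only within a list. A peak was assigned to a gene when its summit, the position of highest signal, lay within 2000 bp of either end of the hairpin.

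In the pooled list 8 peaks lay at the 6 genes, namely 2 at mir-51 and mir-53, 3 at mir-52 and 3 at mir-54, mir-55 and mir-56. For comparison, 17.2% of all miRNA genes had a pooled peak (45 of 261), and so did 14.3% of protein-coding genes and 10.1% of all annotated genes. The members were chosen for having such peaks, so their own count carries no weight against these shares. The conservative list also had a peak at all 6 members, against 17.6% of miRNA genes. The list of replicate 1 and that of replicate 2 each had one at all 6 as well, against 12.3% and 11.5% of miRNA genes. These lists share their reads with the pooled list and are no independent support.

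**Figure D1:**
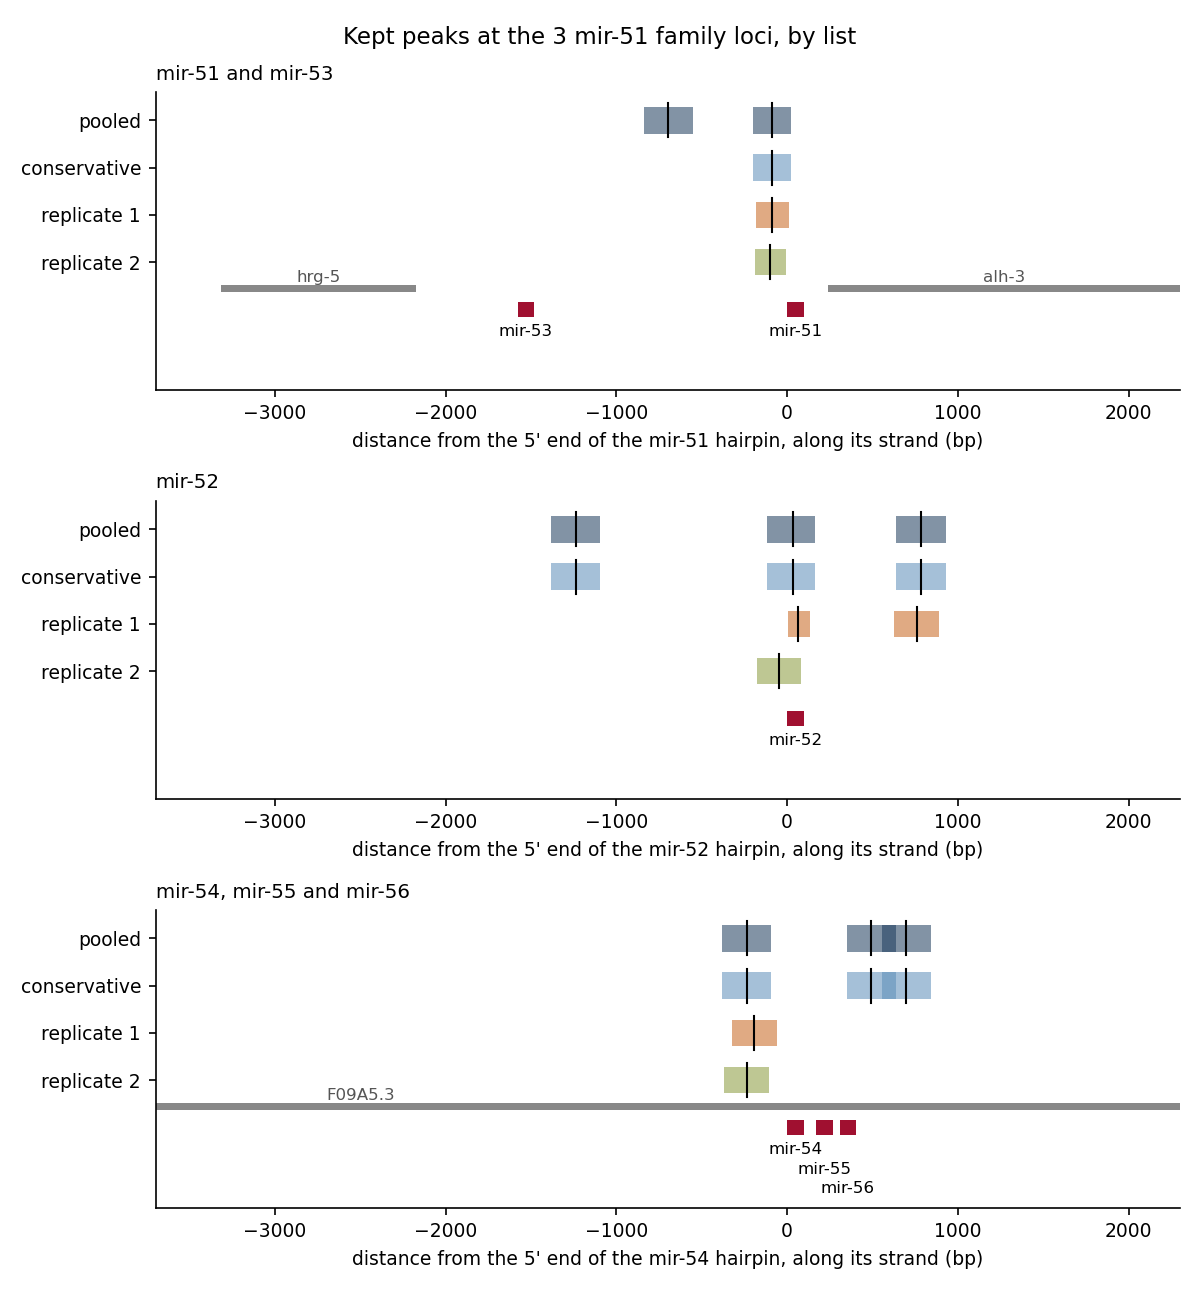
Kept peaks at the 3 loci in the pooled, conservative, replicate 1 and replicate 2 lists, by distance in bp from the 5′ end of the mir-51, mir-52 or mir-54 hairpin along its strand (upstream is negative). Shaded boxes are peaks, black ticks are summits, red boxes are hairpins and grey bars are protein-coding genes, and the strongest peak of each locus, at most 238 bp from its hairpin in the pooled list, appears in all 4 lists.

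The strongest family peak lay just upstream of mir-51. Its summit was 90 bp upstream of the mir-51 hairpin and 1391 bp downstream of mir-53, and the peak (chrIV:11026088-11026315) covered 25 of the 100 bp of the mir-51 hairpin. Its signal was 350 in the pooled list, the rank 85 of 2415, or 3.52% from the top, and 3.34 times the list median of 105. The signal was 177 in replicate 1 and 159 in replicate 2, ranks of 6.14% and 7.51% in their own lists, and the score was 1000 in every list. The summits of the replicates were 90 and 100 bp upstream of mir-51, so both replicates placed it at the same site. The summit also lies within F36H1.17, a short annotated noncoding RNA gene on the strand of mir-51 at 11026131 to 11026219. On the other side of the mir-51 hairpin, the protein-coding gene alh-3 on the plus strand ends at 11025870. The nearest protein-coding 5′ end to the summit, that of hrg-5, is 2983 bp away.

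The second peak of this cluster was weak. Its summit stood between the hairpins, 696 bp upstream of mir-51 and 785 bp downstream of mir-53, with a signal of 72.7, a score of 884 and a rank of 89.3%. In the conservative comparison it scored 823 and was not kept. In replicate 1 the same interval had a signal of 46.4 and a score of 718, and in replicate 2 a signal of 31.6 and a score of 184, both below the threshold. Of the 8 family peaks it alone was absent from the conservative list.

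No kept summit lay within 500 bp of mir-53, whose mature sequence is nearly that of mir-52. Both of its assigned peaks lie downstream of it and were assigned to mir-51 as well. Upstream of mir-53, the pooled ranked list, which also holds weak entries, had one at 445 bp with a score of 97, at place 8061 of 55975 by signal. An entry inside the mir-53 hairpin had a signal of 24.5 and a score of 27. Replicate 1 alone had an entry 469 bp upstream with a signal of 42.2 and a score of 441. None of these was kept, so binding at mir-53 itself, apart from that shared with mir-51, was not detectable in these lists.

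The only gene of the family with a kept summit inside its hairpin was mir-52. The peak (chrIV:14033888-14034173) covered all 100 bp of it, with a signal of 226, a rank of 12.1% and 2.15 times the list median. The signal was 129 in replicate 1 and 91.7 in replicate 2, with scores of 1000 in both and ranks of 14.8% and 28.9%. The summit of replicate 1 lay inside the hairpin and that of replicate 2 lay 47 bp upstream of it, which is a distance of 30 and 82 bp from the pooled summit. Replicate 2 had another entry here that was not kept. Its summit was 53 bp downstream of the hairpin, with a signal of 48.4 and a score of 179. The pooled summit also lies in a noncoding RNA gene annotated on the other strand.

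Both flanks of mir-52 held a further peak. The downstream peak, 685 bp past the hairpin, had a signal of 142 and a rank of 28.9%. It was kept in replicate 1, with a signal of 84.8, but not in replicate 2, where the signal was 49.5 and the score 482. The upstream peak, 1239 bp before the hairpin, had a signal of 88.0 and a rank of 68.3%, and was kept in the conservative list with a score of 961. In the single replicates it scored 735 with a signal of 35.5 and 709 with a signal of 47.1, under the threshold in each. The annotation places both summits between genes, and the nearest protein-coding 5′ end to all 3 peaks of this locus, that of Y37A1B.7, is 8988 to 11011 bp away.

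On chromosome X the strongest peak (chrX:13145187-13145476) lay upstream of the whole cluster. Its summit was 238 bp upstream of mir-54, 408 bp upstream of mir-55 and 545 bp upstream of mir-56. The signal was 149, with a rank of 26.5% and 1.42 times the list median. It was 81.8 in replicate 1 and 61.3 in replicate 2, where the scores were again 1000 and the ranks 38.1% and 65.1%. The replicate 1 signal was above its list's median of 70.7 and the replicate 2 signal was below its median of 70.4. The summit lies in the intron of F09A5.3, 3731 bp inside from the 5′ end of that gene.

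The other 2 peaks of the chromosome X cluster overlapped each other by 86 bp on the downstream side of mir-56. Their summits were 91 and 295 bp downstream of mir-56 and 204 bp apart. The farther one had a signal of 80.0, a score of 918 and a rank of 79.1%. The nearer one had a signal of 20.9, the lowest of the family, a score of 919, a rank of 96.9% and a −log10 q-value of 0.02. Both were kept in the conservative list with a score of 1000, although by signal the nearer one stands at 76.3% of all ranked entries there. In each replicate 1 entry covered both, with a signal of 45.2 and a score of 700 in replicate 1 and a signal of 42.5 and a score of 333 in replicate 2, and neither was kept. Whether the pair is 1 site or 2 cannot be told from these lists.

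**Figure D2:**
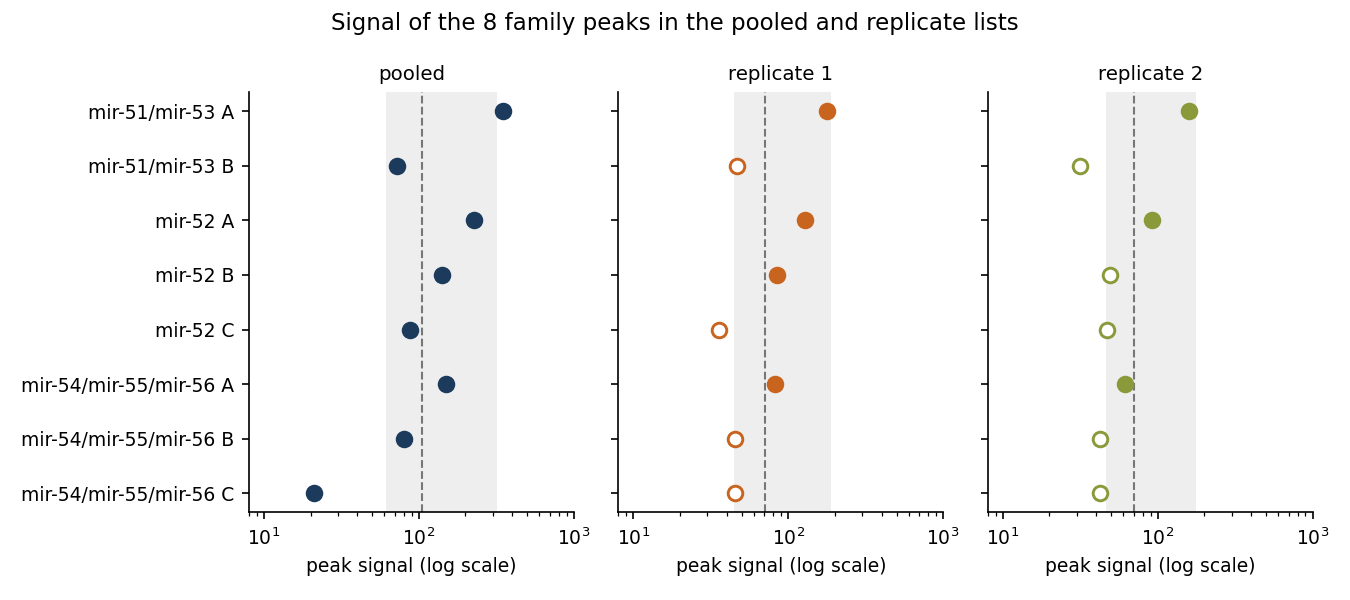
Deposited peak signal (log scale, no unit) of the 8 family peaks in the pooled list and in each replicate, with letters A to C in order of pooled signal within a cluster. Filled points were kept in that list and open points were not; the dashed line is the median and the grey band the 5th to 95th percentile of that list's kept peaks. The mir-51 peak is the highest in all 3 panels, and in replicate 2 only the strongest peak of each cluster is filled.

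Across the 8 peaks, 7 were in the conservative list, 4 in the list of replicate 1 and 3 in that of replicate 2, and 3 were in both replicates. Those 3 were the strongest peak of each cluster. Over the whole pooled list 85.6% of peaks overlapped a conservative peak and 42.3% overlapped a peak of both replicates, so the family's 3 of 8 was near the background. All 8 overlapped at least a weak entry in the ranked list of each replicate, where the 2 downstream peaks on chromosome X share 1 entry. Those ranked lists hold 38917 and 38294 entries. The same share over all pooled peaks was not counted, so this carries no weight. In the pooled list the lowest score kept at these loci was 884, at a signal of 72.7, and the highest not kept was 141, at a signal of 36.5, among 10 pooled entries in the windows that scored 27 to 141. By signal the order crosses, since the kept peak nearest to mir-56 had only 20.9. In the other lists entries lay closer to the threshold of 830, at 823 in the conservative list and at up to 735 in the replicates.

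In the pooled list each cluster had several peaks. The members were chosen on peaks of this same list, so this carries no weight. In replicate 1 only mir-52 kept more than 1 peak, and in replicate 2 no cluster did. The members were chosen for having a peak, so only loci with a peak compare with them. Over all 214 miRNA loci, formed by the same 2000 bp joining, 12.6%, or 27 loci, had at least 1 pooled peak. Of these 27, 5 loci (2.34% of all 214) had 2 or more. Those 5 were the 3 family loci, mir-50 with 3 peaks, and mir-2212 with mir-1819, which had 2. Loci of joined genes also have wider windows than single genes, so their counts are not on equal terms. Neighbouring peaks were common in the list as a whole, where 37.0% of peaks had another summit within 2000 bp. Summits of neighbouring family peaks were 606 bp apart at mir-51 and mir-53, 749 and 1274 bp at mir-52, and 204 and 732 bp on chromosome X.

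Among the 45 miRNA genes with a pooled peak, the strongest peak of each gene ran from 62.8 to 350 in signal, with a median of 99.7, close to the list median of 105. All 6 members were above that median, at 350, 226 or 149, but their 6 values come from only 3 peaks. The members were chosen on these peak values, so their standing carries no weight. The median includes the members and other genes that share a peak. Of the 255 other miRNA genes 39 had a peak, and 11 of them were at or above the weakest member. These were mir-2215 at 345, mir-50 at 276, mir-1819 and mir-2212 at 226, mir-2216 at 213, mir-1018, mir-4921, mir-4923a, mir-4923b and mir-4925 at 165, and mir-55b at 149 through the peak it shares with mir-54. The summits at 226 and 165 outside the family lay within tRNA genes. The summits of mir-2215 and mir-2216 were 1802 bp from the hairpin, and that of mir-50 was 1188 bp away and 175 bp from the 5′ end of tln-1. The strongest peaks of the family lay at 90 bp from mir-51, inside mir-52 and at 238 bp from mir-54, and the same peaks were 408 and 545 bp from mir-55 and mir-56 and 1391 bp from mir-53. A close peak was not particular to the family. Of all miRNA genes, 25 had a pooled summit within 500 bp, and only 5 of these were members. None of the 8 family summits lay at a tRNA gene, the closest being 18893 bp away. The same held for most of the pooled list, where 2202 of 2415 summits were more than 150 bp from a tRNA gene. The summits of mir-2215, mir-2216 and mir-50 were also far from any tRNA gene, at 606803, 288828 and 164129 bp.

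**Figure D3:**
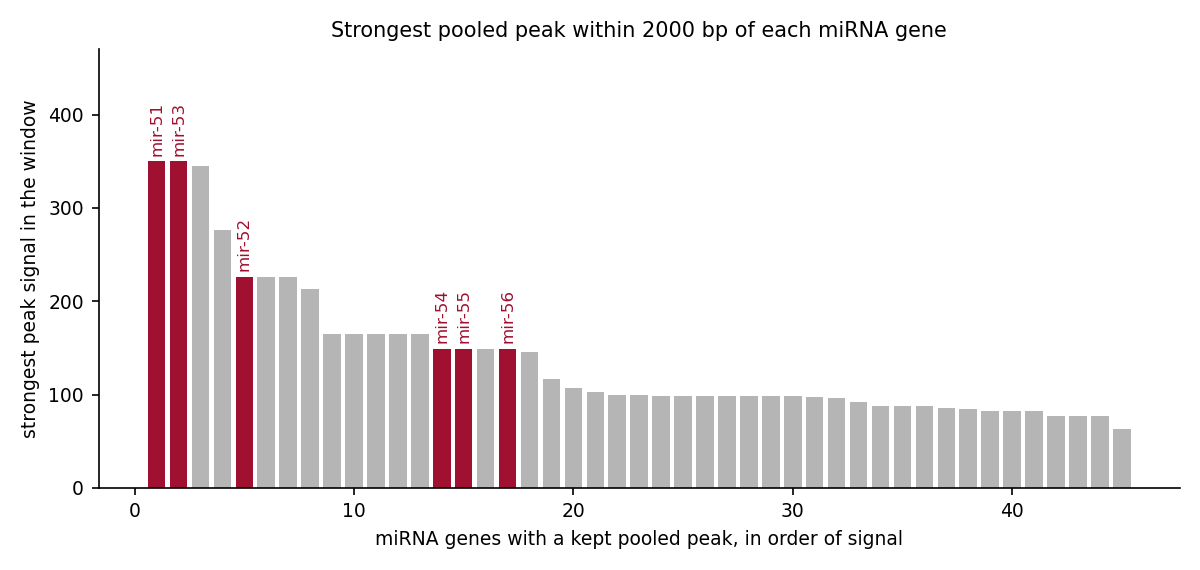
Signal (no unit) of the strongest pooled peak within 2000 bp of each of the 45 miRNA genes that had one, in falling order, with members of the mir-51 family in red. Genes that share a peak have bars of equal height; mir-51 and mir-53 lead at 350, mir-52 follows at 226 and the chromosome X members stand at 149. The members were chosen on these peak values.

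Other seed families were set beside this one from lists chosen with earlier results of these data known. In the mir-35 family 7 of 8 genes, mir-35 to mir-41, had a pooled peak, but it was 1 shared peak of signal 98.7, kept in replicate 2 and not in replicate 1. In a list of mir-71 to mir-74, 3 of 4 genes had one, with mir-72 at 103 and mir-73 and mir-74 at 77.2. In the lin-4 family 1 of 2 genes did, mir-237 at 146, and among 4 matched mir-58 family genes 1 did, mir-1018. None of 6 matched let-7 family genes, 5 mir-64 family genes, 4 mir-44 family genes, 4 mir-2 family genes, 2 mir-46 family genes and 2 mir-75 family genes had a pooled peak. In a mixed list of 11 genes, mir-86 and others taken as single-tissue miRNAs, such as muscle mir-1 and neuronal mir-124, 1 did, mir-90 at 117. At mir-90 a peak was kept in replicate 1 but not in replicate 2.

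**Figure D4:**
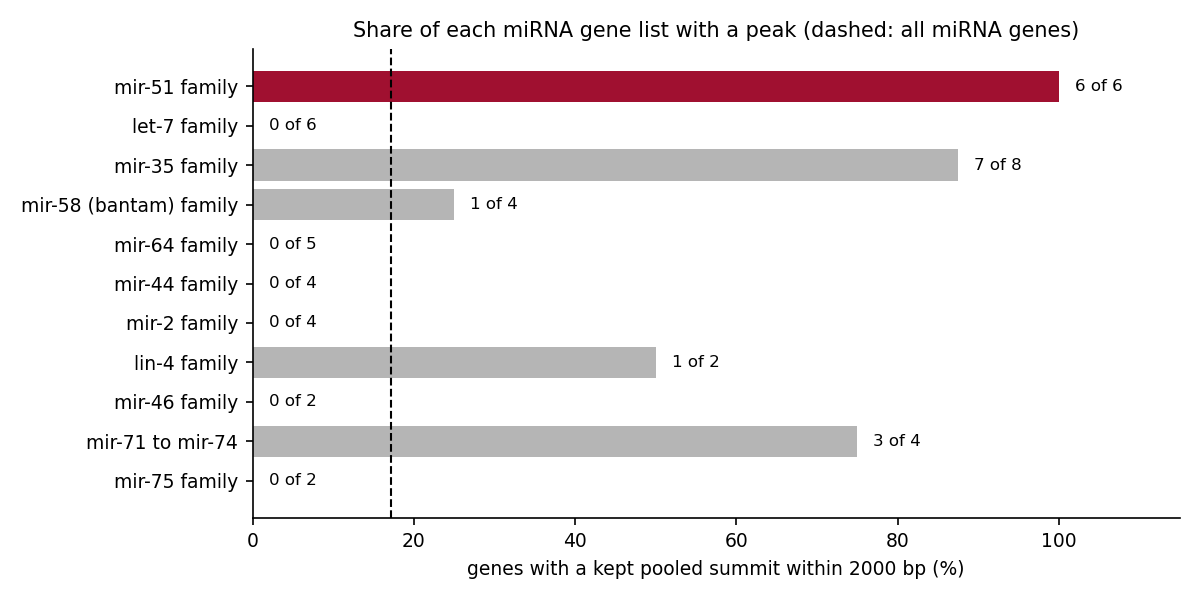
Percent of the matched genes of each miRNA list with a kept pooled summit within 2000 bp, with the count beside each bar; the dashed line is the 17.2% of all miRNA genes. The mir-51 family was chosen for this value, and the 7 of 8 of the mir-35 family come from 1 peak.

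Peaks also lay at genes whose products make miRNAs or act with them. Of 24 matched genes of the processing and silencing machinery, 11 had a pooled peak, 6 a peak in replicate 1 and 6 in replicate 2. The shares of all protein-coding genes in these lists were 14.3%, 10.5% and 8.51%. The machinery genes were listed with earlier results of these data known, so their counts carry no weight against these shares. The strongest peaks were at ain-2 (188) and ain-1 (144), which encode GW182-type partners of Argonaute. Next were alg-2 (143) and alg-5 (130), which encode Argonautes, and ccr-4 (125), a deadenylase subunit. At alg-2 no peak was kept in replicate 1, and at ccr-4 none in replicate 2. The genes drsh-1, pash-1, dcr-1 and alg-1 were among those without a pooled peak. None of 7 genes listed as reported targets or partners of the family, among them the cadherin gene cdh-4, which acts in pharynx attachment, had a peak in the pooled list or in either replicate. The difference between the machinery and the targets was not tested.

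The sequences under 4 of the peaks are given in full because they differ in the short words they hold. They are the strongest peak of each cluster and the downstream peak of mir-52, on the strand of the miRNA, 5′ to 3′, from WBcel235 as carried by RefSeq. Capitals mark the seed of the mature miRNA where the peak reaches it (ACCCGTA), the word ATCGAT, and a match to GTTCGANNC.

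mir-51 upstream peak, chrIV:11026088-11026315, minus strand: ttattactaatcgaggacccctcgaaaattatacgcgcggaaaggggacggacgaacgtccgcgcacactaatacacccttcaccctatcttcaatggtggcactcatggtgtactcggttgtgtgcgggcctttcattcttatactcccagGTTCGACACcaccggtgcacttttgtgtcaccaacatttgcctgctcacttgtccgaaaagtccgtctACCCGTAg
mir-52 hairpin peak, chrIV:14033888-14034173, plus strand: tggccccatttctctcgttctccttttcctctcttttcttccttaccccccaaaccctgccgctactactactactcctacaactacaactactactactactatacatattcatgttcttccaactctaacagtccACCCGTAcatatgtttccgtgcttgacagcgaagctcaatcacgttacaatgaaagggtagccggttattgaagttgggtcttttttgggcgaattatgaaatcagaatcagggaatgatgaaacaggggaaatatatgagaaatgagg
mir-52 downstream peak, chrIV:14034647-14034936, plus strand: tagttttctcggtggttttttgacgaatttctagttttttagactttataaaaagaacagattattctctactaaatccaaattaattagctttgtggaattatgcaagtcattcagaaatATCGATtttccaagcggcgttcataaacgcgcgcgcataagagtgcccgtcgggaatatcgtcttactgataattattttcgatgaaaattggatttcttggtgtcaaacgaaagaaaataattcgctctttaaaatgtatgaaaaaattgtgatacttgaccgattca
mir-54 upstream peak, chrX:13145187-13145476, minus strand: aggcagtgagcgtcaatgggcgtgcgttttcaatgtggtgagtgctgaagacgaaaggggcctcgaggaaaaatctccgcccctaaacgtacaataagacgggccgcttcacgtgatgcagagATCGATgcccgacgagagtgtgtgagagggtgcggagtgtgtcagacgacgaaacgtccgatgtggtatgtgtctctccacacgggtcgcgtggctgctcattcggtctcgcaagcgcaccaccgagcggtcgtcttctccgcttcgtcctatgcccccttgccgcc

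ATCGAT is the core word recognised by ONECUT homeobox proteins, and ATTGAT is a variant of it. Both were searched on both strands within 50 bp of each summit, and they had been chosen with earlier results of these data known. At least 1 of the words was present at 66.3% of all pooled peaks (1601 of 2415) and in 21.1% of windows 300 to 400 bp from the summits. In the family it was present at 2 of 8 peaks. Both were ATCGAT, 16 bp from the summit of the mir-54 upstream peak and 19 bp from that of the mir-52 downstream peak. ATTGAT occurred once, 67 bp from the summit of the mir-52 upstream peak and so outside the window. The strongest peaks of the family, those at mir-51 and inside mir-52, held neither word anywhere in their length. Over the whole length of the peak, 77.1% of pooled peaks and 3 of 8 family peaks held at least 1 of the words.

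The mir-51 peak held a different word, GTTCGACAC, at chrIV:11026155-11026163, 39 bp from its summit and inside F36H1.17. It is a match to GTTCGANNC, the core of the B box, an internal promoter element of tRNA genes. This pattern was chosen after the sequence had been seen. Searched on both strands within 50 bp of the summit, it was present at 5.88% of pooled peaks and in 0.766% of the flanking windows. It was found at 109 of 213 peaks with a summit within 150 bp of a tRNA gene (51.2%) and at 33 of 2202 other peaks. Among those 33 the mir-51 peak was the fourth by signal, and the nearest annotated tRNA gene to it is 205363 bp away. The pattern and the family were both chosen with this peak known, so its presence and place there carry no weight. The other 7 family peaks lacked the pattern.

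Within 50 bp of the summit the GC content of the family peaks ran from 33.7% to 64.4%, inside the 10.9% to 77.2% of the pooled list, and 7 of 8 were above that list's median of 41.6%. The 8 peaks come from only 3 clusters, chosen on this list, and 2 of them overlap, so this count carries no weight. Of 6 genes of ONECUT proteins, 3 were near a pooled peak, through 2 peaks, beside 14.3% of protein-coding genes. These genes too were listed with earlier results of these data known, so their count carries no weight against that share. The peak of ceh-38 had a signal of 713 and was kept in both replicates, while ceh-21 and ceh-39 shared a peak of 93.6 and had one in replicate 1 but not in replicate 2.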

How the data were processed

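T22C8.4 ChIP-seq peaks of 2 replicates were taken as deposited, in 4 thresholded and 4 ranked lists on ce11, per the labels. Which aligner and peak caller made them is not given in the sources used here; notes deposited with the data mention 1 control alignment. The authors' deposited signal has no unit and is not scaled between lists. The deposited score derives from the IDR. The −log10 of a q-value and, for ranked entries, the −log10 of the IDR are deposited values too. In the conservative ranked list, 8 unnamed columns on the rankings compared were not used. Read counts are not part of the lists, so depth is unknown.

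Genes came from Ensembl release 115, and RefSeq supplied sequences of the same assembly. Python 3.11.15 with pandas 2.3.3 joined summits to genes within 2000 bp, and peaks between lists by at least 1 bp of overlap. The joining was tested on simulated data. Every member, kept peak at a member, host or overlapping gene and nearest coding, tRNA and snoRNA gene could be named. The plan added up to 10 other miRNA genes by signal and up to 5 genes with a peak per list. Named beyond this plan were mir-55b, which shares a peak with mir-54, mir-35 to mir-41, which share 1 peak, and some listed genes without a peak. The members and lists were chosen with earlier results of these data known. Names without a match in the annotation (let-7, mir-58 and others) were left out. Alternatives were other lists, windows, overlaps, rankings and word windows. No statistical test was made, since there was 1 group. The replicates are labelled biological.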

Additional observations from a re-analysis of the deposited data

How the results depend on the processing

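All 6 members had a peak in every list and window tried except within 500 bp, where mir-53 had none. The 8 family peaks became 5 within 500 bp, 4 in the stronger part of the pooled list (signal at or above its median) and 3 to 4 when a replicate was left out. The 17.2% of all miRNA genes became 9.58% within 500 bp, 26.8% within 5000 bp and 7.66% in the stronger part, and 11.5% to 12.3% when a replicate was left out. With weak ranked entries admitted, 8 family peaks rather than 3 overlapped an entry in both replicates. The share of all pooled peaks that do so was not counted. Leaving out a replicate moved the rank of the strongest peak from 3.52% to between 6.14% and 7.51% at mir-51 and mir-53, from 12.1% to between 14.8% and 28.9% at mir-52 and from 26.5% to between 38.1% and 65.1% on chromosome X. Ranked by q-value, the first pair of clusters moved to 0.0414%, because 399 pooled peaks tie at the highest value, and the chromosome X cluster moved to 40.2%. GTTCGANNC was in 0 family peaks within 25 bp. Of 44 alternatives 29 stayed within 1.5 times the reported value (ranks: within 1 SD of the 2 replicates' ranks) and 15 did not. That SD was 19.14 on chromosome X and 0.97 at mir-51 and mir-53. Ranks that differ more between replicates therefore pass more easily, so the tally does not measure stability. The cause was not tested where none is given. The single-replicate ranks and the GTTCGANNC windows were added after seeing the data. No paired analysis was possible because there is 1 group. Signal is not comparable between lists, depth is unknown, and a weak site may be missed at the threshold.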
